A study of Enchytraeus albidus with 42 samples.

Results

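Intermediate filament protein transcripts of the white worm Enchytraeus albidus were followed over 14 groups of whole worms. Of the 1035 transcripts on the array, 225 carried a name in the study's list of responding transcripts, and 4 of these 225 names contained the words intermediate filament. EAC00371 was named a cytoplasmic intermediate filament protein. EAC00181, EAC00363 and EAC00999 were each named an intermediate filament protein. Each was read by 1 probe spotted 15 times on every array. The study's list holds only transcripts that passed its own test on these same arrays at 1 or more concentrations, so the 4 transcripts were not a neutral choice, and their tests below are not independent evidence that they respond.

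Adult worms of this soil oligochaete were kept for 2 days in a natural standard soil, and RNA pooled from the worms of a vessel was hybridised to 1 array with a single dye. The 42 arrays fell into 14 groups of 3. The control was soil with water, and it served the water-soluble insecticide dimethoate, spiked at 0.1, 0.5, 2 and 25 mg/kg. The solvent control was soil treated with acetone that was left to evaporate, and it served the herbicide atrazine at 0.2, 0.5, 3 and 50 mg/kg and the fungicide carbendazim at 0.05, 0.1, 0.5 and 3 mg/kg. Within each pesticide the 4 concentrations are those that lower reproduction by 10, 20, 50 and 90%, here called EC10, EC20, EC50 and EC90.

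Intermediate filaments are rope-like polymers of coiled-coil proteins that give cells and tissues mechanical strength, and they form a cytoskeletal system apart from actin filaments and microtubules. Cytoplasmic intermediate filament proteins of invertebrates are related to the nuclear lamins and are known from epithelia, and nematodes carry several genes of the family. Of the 3 pesticides, carbendazim binds tubulin and blocks microtubule assembly, dimethoate inhibits acetylcholinesterase, and atrazine blocks electron transport in the photosystem of plants. In whole-body RNA, fewer cells of a type and less RNA per cell cannot be told apart.

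The arrays differed in brightness and layout. The median log2 signal before scaling ranged from 6.46 to 8.56 over the 42 arrays, and the share of transcripts whose spots were flagged well above background ran from 74.7% to 94.5%. Dimethoate EC10 replicate 1 and dimethoate EC20 replicate 2, which shared a slide and a scan of their own, stood apart: the SD of their deviations from the group means over all transcripts was 0.891 and 0.845, against 0.285 to 0.618 on the other 40 arrays. The 42 arrays lay on 8 slides, carbendazim EC10 and EC20 lay on a slide with no control of either kind, and the 3 solvent control arrays lay on 3 different slides. Results that rest on these arrays or slides are given with and without them.

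A level below is the log2 of a transcript's background-corrected signal averaged over its spots, after a constant shift of each array, and a difference is taken between levels of 1 transcript. EAC00181, EAC00363 and EAC00371 were measured on nearly all arrays. EAC00181 and EAC00363 were well above background, on more than a 0.5 share of their spots, on 42 of 42 arrays. EAC00371 was so on 40 of 42, the exceptions being the 2 arrays that stood apart. EAC00999 was well above background on 18 of 42 arrays only, and on none of the solvent control, atrazine EC10, atrazine EC20 or atrazine EC50 arrays. None of the 4 had a saturated spot.

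**Figure D1:**
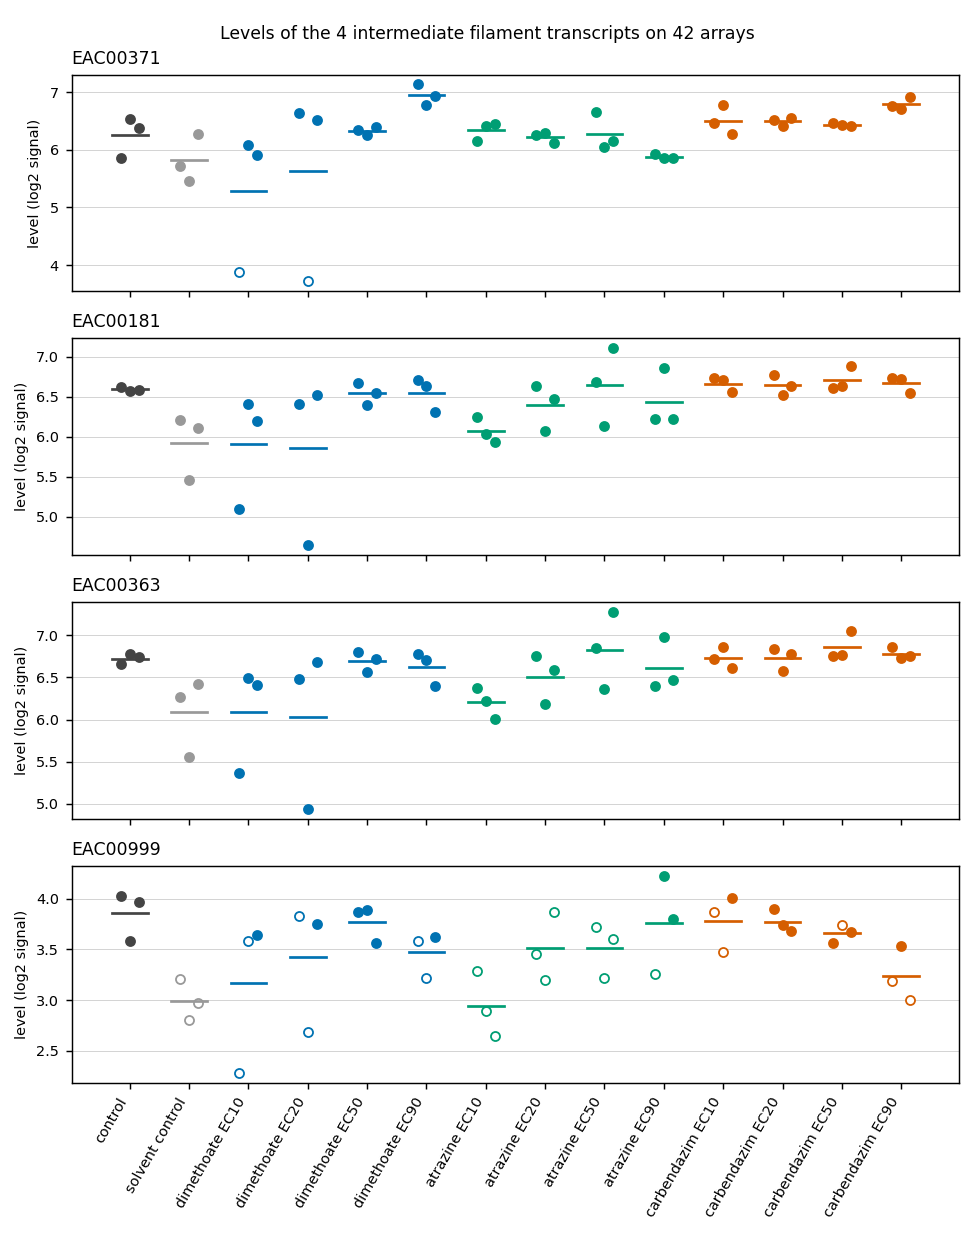
Levels of the 4 transcripts, in log2 signal, on each of the 3 arrays of the 14 groups, with a line at each group mean; open circles mark arrays on which fewer than 8 of 15 spots were well above background. The 12 carbendazim arrays of EAC00181 sit between 6.52 and 6.88, all above the 3 solvent control arrays and around the 3 control arrays.

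EAC00181 was highest under carbendazim and lowest under the lower dimethoate concentrations. In the control its level was 6.63, 6.57 and 6.58 on the 3 arrays, and in the solvent control it was 6.21, 5.47 and 6.12. Under carbendazim it was 6.73, 6.71 and 6.56 at EC10 and 6.78, 6.52 and 6.64 at EC20, while EC50 gave 6.62, 6.64 and 6.88 and EC90 gave 6.73, 6.72 and 6.55. All 12 carbendazim arrays were thus above the solvent control arrays, and they overlapped the control arrays. Under atrazine the level was 6.25, 6.04 and 5.93 at EC10 and 6.63, 6.08 and 6.47 at EC20, while EC50 gave 6.69, 6.13 and 7.11 and EC90 gave 6.22, 6.86 and 6.22. Under dimethoate it was 5.10, 6.41 and 6.20 at EC10 and 6.41, 4.65 and 6.52 at EC20, and EC50 and EC90 gave 6.68, 6.40 and 6.55 and 6.71, 6.64 and 6.31. The values of 5.10 and 4.65 came from the 2 arrays that stood apart, and the other 4 arrays of dimethoate EC10 and EC20 ranged from 6.20 to 6.52.

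In order of group means, EAC00181 ran from carbendazim EC50 (6.71 ± 0.15, SD, n = 3), EC90 (6.67 ± 0.10), EC10 (6.67 ± 0.10) and EC20 (6.65 ± 0.13) through atrazine EC50 (6.64 ± 0.49) and the control (6.59 ± 0.03) to dimethoate EC90 (6.55 ± 0.21) and EC50 (6.54 ± 0.14). Below these lay atrazine EC90 (6.43 ± 0.37), EC20 (6.40 ± 0.29) and EC10 (6.07 ± 0.16), then the solvent control (5.93 ± 0.40), dimethoate EC10 (5.91 ± 0.70) and dimethoate EC20 (5.86 ± 1.05). The ranges of arrays overlapped for 13 of 13 neighbouring groups in this order. The whole span of group means was 0.85.

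EAC00363 followed EAC00181 almost array by array. In the control its level was 6.66, 6.78 and 6.74, and in the solvent control it was 6.27, 5.56 and 6.42. Carbendazim gave group means of 6.73 ± 0.12, 6.73 ± 0.13, 6.86 ± 0.17 and 6.78 ± 0.07 from EC10 to EC90, with 12 arrays between 6.58 and 7.06. These 12 arrays lay above all solvent control arrays and on both sides of the control. Atrazine gave 6.20 ± 0.19, 6.51 ± 0.30, 6.83 ± 0.46 and 6.62 ± 0.32 from EC10 to EC90. Dimethoate gave 6.09 ± 0.63, 6.04 ± 0.95, 6.69 ± 0.12 and 6.63 ± 0.20. The low means at dimethoate EC10 and EC20 held values of 5.36 and 4.94 on the 2 arrays that stood apart, whereas the other 4 arrays ranged from 6.41 to 6.69. Neighbouring groups overlapped in 13 of 13 cases, and the group means spanned 0.83.

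EAC00371, the cytoplasmic form, had its highest level under the highest dimethoate concentration. At dimethoate EC90 it was 7.14, 6.78 and 6.94, against 5.86, 6.53 and 6.38 in the control, so the 3 arrays lay above all control arrays. The share of all transcripts for which that held was not counted. At dimethoate EC50 it was 6.34, 6.27 and 6.39, within the range of the control. At dimethoate EC10 it was 3.88, 6.08 and 5.92 and at EC20 it was 6.64, 3.72 and 6.52, where 3.88 and 3.72 came from the 2 arrays that stood apart and were not well above background.

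Under carbendazim EAC00371 was 6.47, 6.78 and 6.28 at EC10 and 6.52, 6.42 and 6.56 at EC20, while EC50 gave 6.47, 6.44 and 6.41 and EC90 gave 6.76, 6.71 and 6.92. In the solvent control it was 5.72, 5.46 and 6.27. The highest solvent control array, at 6.27, lay just below the lowest carbendazim array, at 6.28, so the groups were separate by a narrow margin. Under atrazine the level fell in the middle of the range, with means of 6.34 ± 0.16, 6.23 ± 0.09, 6.28 ± 0.32 and 5.88 ± 0.04 from EC10 to EC90. In the order of group means, dimethoate EC90 (6.96 ± 0.18) and carbendazim EC90 (6.80 ± 0.11) came highest and the solvent control (5.82 ± 0.41), dimethoate EC20 (5.63 ± 1.66) and dimethoate EC10 (5.29 ± 1.23) lowest, and 12 of 13 neighbours overlapped. The exception was the step from atrazine EC20 to atrazine EC90.

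EAC00999 was dim, and its order of levels is partly an order of values near background. In the control, where 3 of 3 arrays were well above background, its level was 4.02, 3.58 and 3.97. In the solvent control, where none was, the measured signal was 3.21, 2.81 and 2.97, below all control arrays. The remaining groups gave measured means between 2.94 ± 0.32 at atrazine EC10 and 3.78 ± 0.28 at carbendazim EC10, with 13 of 13 neighbours overlapping. At carbendazim EC20 and at dimethoate EC50, 3 of 3 arrays were well above background, with levels of 3.90, 3.74 and 3.68 and of 3.87, 3.89 and 3.57. The lowest signal that counted as well above background on the solvent control arrays averaged 4.04, above the mean EAC00999 level of every group, so no fold against the solvent control can be bounded. Its fitted differences from the solvent control are differences of signals near background, and no direction is read from them.

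Carbendazim against the solvent control gave the most uniform differences. Relative to the solvent control, EAC00181 was 1.68-fold (0.75 ± 0.26 on the log2 scale, ± SE of the fit), EAC00371 1.67-fold (0.74 ± 0.36) and EAC00363 1.61-fold (0.69 ± 0.25) over the mean of the 4 concentrations, with 12 treated and 3 control arrays. With limma fitted on all arrays and p adjusted over all 1035 transcripts by Benjamini-Hochberg, the adjusted p was 0.151 for EAC00181, 0.284 for EAC00371, 0.151 for EAC00363 and 0.172 for EAC00999. None of the 4 passed 0.05, where 1.55% of all transcripts did.

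For EAC00181, EAC00363 and EAC00371, that is 3 of 4 transcripts, all 12 carbendazim arrays lay above all 3 solvent control arrays, which held for 5.02% of all transcripts. For EAC00999, 10 of 12 measured values did. For EAC00181 the log2 difference was 0.74, 0.72, 0.78 and 0.74 from EC10 to EC90, each with an SE of 0.33. For EAC00363 the differences were 0.64, 0.64, 0.78 and 0.69, each with an SE of 0.31. For EAC00371 they were 0.69, 0.68, 0.62 and 0.98, each with an SE of 0.46, so the larger value at EC90 was within 1 SE of the others. At single concentrations 0 of 4 transcripts passed limma's adjusted p, where the share of all transcripts that passed was 0.193% (EC10), 0.0966% (EC20), 0.386% (EC50) and 3.77% (EC90). Trends over concentration were not tested.

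**Figure D2:**
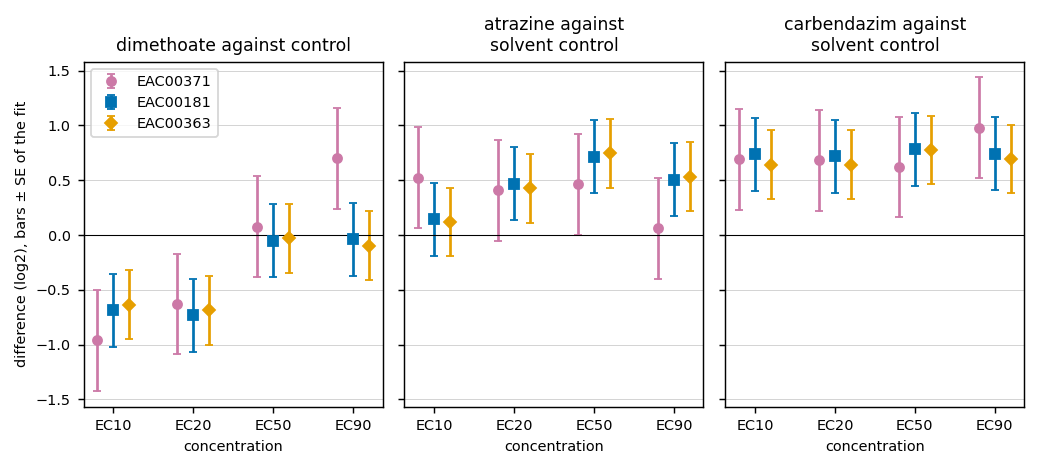
Log2 difference of EAC00371, EAC00181 and EAC00363 from the control of each pesticide at EC10, EC20, EC50 and EC90; points are fitted differences over 3 against 3 arrays and bars are ± 1 SE of the fit. The 12 carbendazim points lie between 0.62 and 0.98, whereas the dimethoate points are below 0 at EC10 and EC20. At dimethoate EC90, EAC00371 is at 0.70 ± 0.46, EAC00181 at −0.04 ± 0.33 and EAC00363 at −0.10 ± 0.31.

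Whether the carbendazim difference passed the test depended on the 2 dimethoate arrays that stood apart, although neither enters the difference itself. The fit shares its estimate of the spread over all groups, and the SE of the difference for EAC00181 was 0.26 with these arrays and 0.16 without them. Without them the differences were the same and 4 of 4 transcripts passed, with limma's adjusted p at 0.0034 for EAC00181, 0.0050 for EAC00363, 0.0016 for EAC00371 and 0.015 for EAC00999, where 13.2% of all transcripts passed. Fitted on the solvent control and carbendazim arrays alone, 4 of 4 passed as well, with adjusted p between 0.0073 and 0.013, where 14.4% of all transcripts passed. Each fit takes 1 spread for all its groups. For EAC00181, however, the SD was 0.40 over the solvent control arrays and 0.10 to 0.15 within the carbendazim groups. The arrays of carbendazim EC10 and EC20 also shared 1 slide and 1 scan. These adjusted p values allow for neither. The call of EAC00999 in both fits is against solvent control arrays of which 0 of 3 were well above background, and its fitted difference turned to −0.23 with another background correction (normexp).

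The size of the difference also rested on the solvent control. Without solvent control replicate 2, the lowest of its arrays, the log2 difference was 0.51 for EAC00181, 0.43 for EAC00363 and 0.56 for EAC00371. Against the control in place of the solvent control, the carbendazim mean differed by 0.08 ± 0.26 for EAC00181, 0.05 ± 0.25 for EAC00363 and 0.30 ± 0.36 for EAC00371, with limma's adjusted p of 0.943, 0.964 and 0.747. Against both controls together the differences were 0.41 ± 0.20, 0.37 ± 0.19 and 0.52 ± 0.28, with adjusted p of 0.253, 0.272 and 0.293. No slide held both carbendazim and control arrays, so slide and treatment cannot be told apart in the comparison with the control.

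The solvent control was itself below the control. EAC00181 was at 0.631 of its control level (−0.67 ± 0.33 on the log2 scale), EAC00363 at 0.642 (−0.64 ± 0.31) and EAC00371 at 0.738 (−0.44 ± 0.46). For EAC00181 and EAC00363 the solvent control arrays lay below all control arrays, as they did for 13.1% of all transcripts. The measured signal of EAC00999 did as well, but 0 of 3 solvent control arrays were well above background, and no direction is read from it. The adjusted p in limma was 0.439 for EAC00181, 0.439 for EAC00363, 0.670 for EAC00371 and 0.154 for EAC00999, so 0 of 4 passed where 1.84% of all transcripts did. The control and solvent control shared no slide, so that slide and solvent cannot be told apart in this comparison.

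Only slide 5 held a solvent control array beside carbendazim arrays. There EAC00181 was 6.21 in the solvent control and 6.55 to 6.88 on the 5 carbendazim arrays, a difference of 0.48, and 5 of 5 arrays were above it. EAC00363 differed by 0.57 and EAC00371 by 0.88 on this slide, again with 5 of 5 arrays above. How many of all transcripts showed this against the 1 solvent control array was not counted, and nothing is read from the 5 of 5. With slide as a fixed block in limma the differences over all carbendazim groups were 0.43, 0.48 and 0.68 for EAC00181, EAC00363 and EAC00371, each with an adjusted p of 0.996.

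**Figure D3:**
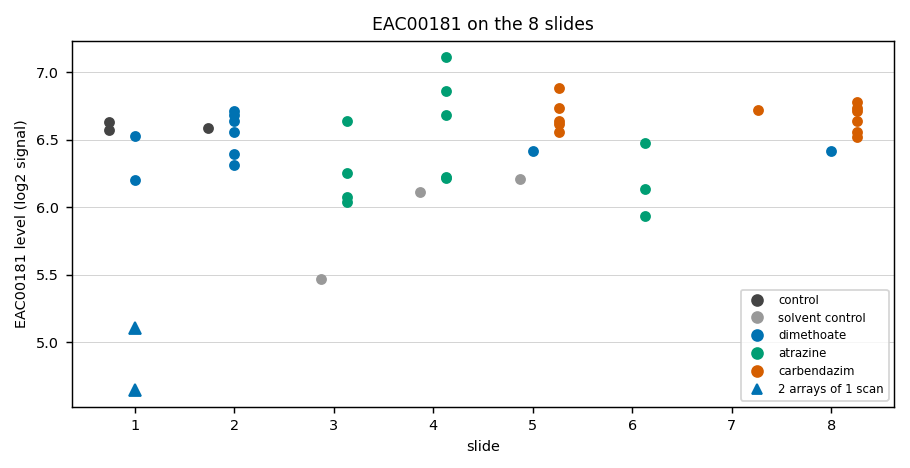
Level of EAC00181, in log2 signal, on each of the 42 arrays by slide, coloured by control, solvent control and pesticide; triangles are the 2 dimethoate arrays of 1 scan that stood apart. The 3 solvent control arrays lie on slides 3, 4 and 5, and on slide 5 all 5 carbendazim arrays are above the solvent control array. How many of all transcripts showed this was not counted.

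Atrazine shared the solvent control with carbendazim and gave smaller and more scattered differences. Over the 4 concentrations EAC00181 was 0.46 ± 0.26 above the solvent control, EAC00363 0.46 ± 0.25 and EAC00371 0.36 ± 0.36, with limma's adjusted p of 0.655, 0.655 and 0.866. Of the 12 atrazine arrays, 8 lay above all solvent control arrays for EAC00181, 6 for EAC00363 and 4 for EAC00371. Such counts were not made over all transcripts, and nothing is read from them. EAC00181 and EAC00363 had their smallest differences at EC10, 0.14 and 0.12, and their largest at EC50, 0.71 and 0.74. EAC00371 ran otherwise, with 0.52, 0.41, 0.46 and 0.06 from EC10 to EC90. No transcript passed at any atrazine concentration or over their mean, and 0% of all 1035 transcripts did in limma's fit.

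Within slides the atrazine values were uneven. On slide 3, with atrazine EC10 and EC20, the 4 atrazine arrays exceeded the solvent control array by 0.78 on average for EAC00181 and by 0.82 for EAC00371. On slide 4, with EC50 and EC90, EAC00181 exceeded it by 0.50 whereas EAC00371 was 0.18 lower (−0.18).

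The 2 pesticides were compared directly, a contrast in which the solvent control cancels. Carbendazim minus atrazine was 0.38 ± 0.23 for EAC00371, 0.29 ± 0.17 for EAC00181 and 0.23 ± 0.16 for EAC00363. The adjusted p in limma was 0.545, 0.494 and 0.617, and 0 of 4 transcripts passed where 2.13% of all did. Without the 2 arrays that stood apart, EAC00371 passed with an adjusted p of 0.0071 and the other 3 did not, at 0.081 for EAC00181, 0.183 for EAC00363 and 0.373 for EAC00999. In that fit 81 of all 1035 transcripts passed. No slide held both pesticides, and with slide as a fixed block the difference was −0.24 for EAC00181, −0.14 for EAC00363 and 0.34 for EAC00371, each with an adjusted p of 0.999. The effect concentrations match between the pesticides but the doses in soil do not.

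Dimethoate gave differences in both directions, and those at EC10 and EC20 were smaller without the 2 arrays that stood apart. Over EC10 and EC20 together EAC00181 was −0.71 ± 0.29, EAC00363 −0.66 ± 0.27, EAC00371 −0.80 ± 0.40 and EAC00999 −0.56 ± 0.26 from the control, with limma's adjusted p between 0.288 and 0.332. None of the 4 passed, and 0% of all transcripts did. Without the 2 arrays that stood apart, the values were −0.21, −0.21, 0.03 and −0.15. EAC00999 was well above background on 1 of 3 arrays at each of these concentrations, and its value turned to 0.065 with normexp and to 0.12 with outlier spots kept. EAC00181 was below all control arrays on 6 of 6 arrays, and so without the 2 arrays on 4 of 4. Its control arrays lay close together, with an SD of 0.03, the smallest of its 14 groups. The share of all transcripts with such a separation was not counted, and nothing is read from it. The 2 arrays that stood apart lay on slide 1, where 2 of the 3 control arrays lay as well.

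Over all 4 dimethoate concentrations the mean differences were −0.38 ± 0.26 for EAC00181, −0.36 ± 0.25 for EAC00363, −0.40 ± 0.24 for EAC00999 and −0.20 ± 0.36 for EAC00371. None passed, with limma's adjusted p from 0.833 to 0.988, where 0.676% of all transcripts passed. Without the 2 arrays that stood apart they were −0.13 for EAC00181, −0.14 for EAC00363, −0.19 for EAC00999 and 0.21 for EAC00371, and none passed. At single concentrations 0 of 4 passed, where 0% of all did at EC10 and EC20, 1.55% at EC50 and 3.19% at EC90. At EC90 the difference from the control was 0.70 ± 0.46 for EAC00371, −0.04 ± 0.33 for EAC00181 and −0.10 ± 0.31 for EAC00363. The adjusted p of EAC00371 at EC90 was 0.793 in limma with all arrays and 0.014 without the 2 arrays that stood apart. In the latter fit 51 of all 1035 transcripts passed at EC90.

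The higher dimethoate concentrations were also set against the lower, with 6 arrays on each side and no control. EAC00371 was 2.27-fold at EC50 and EC90 (1.18 ± 0.33 on the log2 scale) relative to EC10 and EC20, and EAC00181 was 1.59-fold (0.67 ± 0.24). Both passed in limma, with adjusted p of 0.0116 and 0.0484, whereas EAC00363 (0.60 ± 0.22, adjusted p = 0.0579) and EAC00999 (0.33 ± 0.21, adjusted p = 0.268) did not. The background was high here: 17.3% of all transcripts passed. For 0 of 4 transcripts were the higher concentrations above the lower on all arrays, against 3.48% of all transcripts.

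Both calls rested on the 2 arrays that stood apart, which belong to the lower concentrations. Without them the difference was 0.35 for EAC00371 (limma, adjusted p = 0.128) and 0.16 for EAC00181 (adjusted p = 0.616). Leaving out dimethoate EC20 replicate 2 alone gave 0.71 and 0.36, and neither passed. All 6 arrays of the higher concentrations lay on slide 2 and those of the lower on slides 1, 5 and 8. Slide and concentration thus cannot be told apart from these arrays alone, and slide 2 shared only the control with other slides. With slide as a fixed block the difference was 1.45 for EAC00371 (adjusted p = 0.533) and 0.94 for EAC00181 (adjusted p = 0.552).

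These 2 arrays also had the lowest overall signal. The 3 arrays with the lowest median log2 signal before scaling were dimethoate EC20 replicate 2 (6.46), dimethoate EC10 replicate 1 (6.61) and solvent control replicate 2 (6.97), and the same 3 arrays held the 3 lowest levels of EAC00181, EAC00363 and EAC00371. Over 42 arrays the level of EAC00181 and the median signal had a Pearson r of 0.64 and a Spearman rho of 0.20. Over the 40 arrays without the pair these were 0.23 and 0.08. For EAC00371 they were 0.77 and 0.38, and 0.47 and 0.28 without the pair. The points share slides, scans and scaling, and the part of signal strength in the results was not tested.

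The forms were then compared with each other. EAC00181 and EAC00363 had a Pearson r of 0.99 and a Spearman rho of 0.95 over 42 arrays, and of 0.99 and 0.97 for deviations from the group means. Their difference in level had an SD of only 0.073 over the 42 arrays. Of the 535095 pairs among all transcripts, 0.0415% had a higher r, and each of the 2 was the other's nearest transcript. Without the pair of deviating arrays r was 0.98. Whether the 2 probes read the same gene cannot be told apart from a shared pattern with the values used here.

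The other forms agreed less closely. EAC00371 had an r of 0.79 with EAC00181 and 0.77 with EAC00363, but rho was 0.48 for each, and without the deviating pair r was 0.44 and 0.42. For deviations from group means without the pair r was 0.18 and 0.32. EAC00999 had an r of 0.73 with EAC00181 and 0.71 with EAC00363, and 0.62 and 0.58 without the pair. Between EAC00371 and EAC00999 r was 0.45 with all arrays and −0.0033 without the pair. Much of the correlation of EAC00371 with the rest therefore lay in 2 arrays. These r values describe arrays that share slides and scaling.

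**Figure D4:**
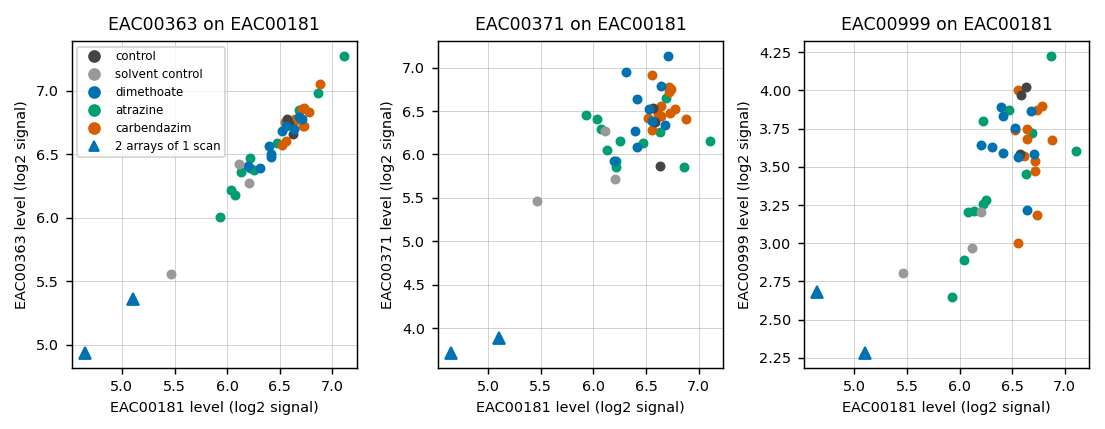
Levels of EAC00363, EAC00371 and EAC00999 against the level of EAC00181 on the same array, in log2 signal, for 42 arrays coloured by control and pesticide; triangles are the 2 dimethoate arrays of 1 scan that stood apart. EAC00363 lies along a line (r = 0.99), whereas EAC00371 spreads widely once the 2 lowest arrays are set aside (r = 0.44).

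The size of the treatment differences was compared between forms on the same array, where any shift of the array cancels. A two-sided exact permutation test over the 12 treated and 3 control arrays was run for 6 pairs of forms and 3 pesticides, 18 tests in all with a smallest possible p of 0.0022. The difference between 2 forms in their mean change ranged from −0.093 to 0.19 on the log2 scale, and the adjusted p of these permutation tests was 0.980 in each. For EAC00371 minus EAC00181 under dimethoate, the difference was 0.17, with an SD of 0.53 over 12 treated arrays and 0.38 over 3 control arrays. Differences of that size were thus not detectable at this spread, and the tests do not show that the forms respond alike. For EAC00181 minus EAC00363 the spread was small, with an SD between 0.053 and 0.078 over the treated arrays of a pesticide, and the difference was −0.016 under dimethoate, 0.0024 under atrazine and 0.056 under carbendazim.

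The transcripts most like the intermediate filament profile were sought over the 14 group means. An unnamed transcript (Ealb_Met_P10_D12_SP6_2091251) had the highest Pearson r with the mean profile of the 4, at 0.95. It was followed by EAC00444, an actin (0.92), EAC00541, a myosin alkali light chain (0.91), EAC00099, named alpha 1 (0.90), and the unnamed P1_G1_T7_1328815 (0.87). Actin and myosin are the thin and thick filament proteins of muscle. EAC00444 was 0.79 ± 0.33 above the solvent control over the carbendazim concentrations, with an adjusted p of 0.214 in limma, and EAC00541 was 0.59 ± 0.17 with an adjusted p of 0.0619. The order depended on the deviating pair: with group means taken without it, r was 0.93 for the first unnamed transcript, which fell to place 2, 0.84 for EAC00444 and 0.72 for EAC00541, and the last 4 of the 5 fell to places 15, 70, 48 and 81.

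Other cytoskeletal transcripts were counted by name from the same study list, so they carry the same selection. Of 5 microtubule transcripts (tubulins, the microtubule-destabilising stathmin and the ciliary protein tektin), 0 were called higher and 1 lower in the mean over carbendazim, where 1.55% of all transcripts passed. The transcript called was stathmin, EAC00992, at −0.81 ± 0.19 (limma, adjusted p = 0.0233). The alpha tubulin EAC00175 was 0.72 ± 0.32 (adjusted p = 0.246), and the list's median was 0.50 beside 0.01 for all 1035 transcripts. That median is the value of the dim tektin 2 (0.50 ± 0.51), which was well above background on 5 arrays only. The values next to it in the list, of beta tubulins, were 0.50 ± 0.21 and 0.49 ± 0.24, and neither passed. Of 24 transcripts of actin and actin-binding proteins, 0 were called, and the median was 0.04. The muscle actin EAC00332 and the actin EAC00444 had differences of −0.90 ± 0.28 and 0.79 ± 0.33 (adjusted p = 0.0960 and 0.214).

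Of 21 transcripts of muscle filament proteins (myosins, tropomyosins, troponins and calponins), 0 were called under carbendazim, where 1.55% of all transcripts passed, and the median was 0.27. The myosin light chains EAC00378 and EAC00259 were at −0.68 ± 0.26 and −0.66 ± 0.27 (limma, adjusted p = 0.172 and 0.194). The DNA replication and repair list held 2 transcripts, the replicative helicase subunit EAC00212 at 0.29 ± 0.24 (adjusted p = 0.558) and EAC00549 at −0.22 ± 0.46 (adjusted p = 0.862), with 0 called. In the comparison of higher with lower dimethoate concentrations, where 17.3% of all transcripts passed, the calls higher and lower were 1 and 1 of 5 for microtubules, 1 and 2 of 24 for actin, 3 and 0 of 21 for muscle filaments and 0 and 0 of 2 for replication.

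Markers of body wall muscle were also above the solvent control under carbendazim, though none passed. The list held 7 transcripts, 5 of myosin heavy chain and 2 of troponin T, and the log2 of their summed signal was 16.1 to 16.2 on the solvent control arrays, 16.2 to 16.4 on the control arrays and 16.3 to 16.6 on the 12 carbendazim arrays. Over the carbendazim mean 7 of 7 were above the solvent control, with a median of 0.48 and differences from 0.08 to 0.64. That median is the value of a dim myosin heavy chain (0.48 ± 0.30), well above background on only 3 of 42 arrays. None of the 7 passed, where 1.55% of all transcripts did. Other muscle transcripts went the other way: muscle actin EAC00332 was at −0.90 and the myosin light chains EAC00378 and EAC00259 at −0.68 and −0.66. Of the 21 muscle filament transcripts, which include the 7, 15 were above the solvent control. On the 2 deviating arrays the summed signal was 15.4 and 14.3. The 2 hemoglobin transcripts were below the solvent control under carbendazim, at −0.71 ± 0.58 and −0.09 ± 0.17, and 0 of 2 passed. The defining gut and ciliated-cell markers were dim: glucan endo-beta-glucosidase was well above background on 0 of 42 arrays, chymotrypsinogen on 2 and tektin 2 on 5. The part of muscle content in the intermediate filament results was not tested.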

How the data were processed

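The authors labelled RNA with a single dye, hybridised it to custom Agilent arrays and read the scans with Agilent Feature Extraction 10.5.1.1, as the submitters' processing notes name it. The deposited values are spot intensities. gProcessedSignal is background-corrected by that software, and the value table deposited beside it held the same intensities on all 42 arrays, with a largest relative difference of 0. Names were linked to array sequences by matching the 12 log2 ratios of the study's list to ratios recomputed from the deposited intensities: 225 of 225 names found a sequence of their own, with a largest difference of 0.00131, against 0.0371 for the closest second choice. The list's values were used for nothing else.

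Spots flagged as outliers were left out, the rest of a transcript's spots were averaged, log2 was taken, and each array was shifted by its median difference from the median array (−1.29 to 0.50). Groups were compared in limma 3.58.1 (R 4.3.3) with all 42 arrays and 14 group means, Benjamini-Hochberg over 1035 transcripts and a threshold of 0.05. The fit had 28 residual and 3.94 prior degrees of freedom. The fit and the permutation test were tested on simulated data. Differences between forms used exact permutation tests (SciPy, 455 arrangements). Replicates were separate vessels of 1 experiment. The number of arrays limits the precision.

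The 4 transcripts, the lists and the tests were chosen with earlier results of these data known. All 4 transcripts were named. Of other transcripts, the text named the 5 with the highest r with their mean profile and, from each list, the 2 with the largest carbendazim difference; stretches of sequence were not used here. Alternatives covered scaling, background correction, outlier spots, dim transcripts, slide and scan as blocks, the replicate number as a block, arrays left out and the methods' t-test.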

Additional observations from a re-analysis of the deposited data

How the results depend on the processing

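Members' values depended mostly on the 2 deviating arrays, the slide and, for EAC00999, the background correction. The carbendazim mean passed limma's threshold in 2 settings, with the differences unchanged at 0.74 for EAC00371, 0.75 for EAC00181, 0.69 for EAC00363 and 0.62 for EAC00999 (its values against the solvent control lie near background and give no fold or direction): groups compared alone, and without the deviating pair. In these 2 settings carbendazim minus atrazine passed for EAC00371 only (0.38). Of all 1035 transcripts, 56 passed in this contrast with the groups compared alone and 81 without the pair. Without the pair, solvent control minus control passed for EAC00999 (a fitted −0.86, against arrays on which it was not well above background) and for 57 of all 1035 transcripts. Single concentrations then gave 1 call at dimethoate EC90, 1 at atrazine EC90 and 3 at each carbendazim concentration. Of all 1035 transcripts, 51 passed at dimethoate EC90, 34 at atrazine EC90 and 44, 58, 71 and 141 at carbendazim EC10 to EC90. Other values moved across 0 while not passing. Without the pair, EAC00371 was 0.21 in the dimethoate mean and 0.035 at EC10 and EC20, EAC00999 was −0.080 in higher minus lower dimethoate, and r of EAC00371 with EAC00999 was −0.0033. With normexp, EAC00999 was −0.23 for carbendazim, −0.22 for atrazine, −0.011 between them, 0.065 at dimethoate EC10 and EC20, −0.15 for higher minus lower and 0.10 for solvent control minus control, EAC00371 was 0.010 in the dimethoate mean, and 2 form differences were called under carbendazim, both against EAC00999. With outlier spots kept, EAC00999 was 0.12 at dimethoate EC10 and EC20 and −0.33 for higher minus lower. With slide as a fixed block, carbendazim minus atrazine was −0.24, −0.14 and −0.19 for EAC00181, EAC00363 and EAC00999. With scan as a random block, chosen after seeing the data, EAC00371 was 0.086 in the dimethoate mean. Against the control, also chosen after seeing the data, atrazine gave −0.073, −0.21, −0.18 and −0.43 for EAC00371, EAC00181, EAC00363 and EAC00999, and carbendazim −0.24 for EAC00999. The cause was not tested.

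Higher minus lower dimethoate lost its call for EAC00371 with the groups compared alone (1.18), with slide as a fixed block (1.45), without the pair (0.35) and with scan as a random block (0.81). For EAC00181 it was lost with the 75th percentile (0.59), quantile normalization (0.46), normexp (0.27), outlier spots kept (0.40), spots averaged as log2 (0.62), groups compared alone (0.67), slide as a fixed (0.94) or random block (0.65), without the pair (0.16) and with scan as a random block (0.49). With 1 array left out the difference ranged from 0.71 to 1.44 for EAC00371, 0.36 to 0.83 for EAC00181 and 0.32 to 0.76 for EAC00363, lowest without dimethoate EC20 replicate 2 each time, and the dimethoate mean of EAC00371 from −0.40 to 0.035. EAC00363 gained a call there without dimethoate EC10 replicate 2 or 3, or EC20 replicate 1 or 3 (lowest adjusted p in limma 0.0116). EAC00371 lost its call without dimethoate EC10 replicate 1 or EC20 replicate 2, and EAC00181 lost it without either of these or any 1 array of EC50 or EC90. The replicate number as a block, the replicate block, changed no call; carbendazim for EAC00181 was 0.75 with it. Deviations of same-numbered arrays had a mean correlation of 0.0041 (lowest −0.79), against −0.0016 for differently numbered arrays. Of the 42 arrays, 23 correlated best with an array of their own number, a count from the data and not from the design. The count to expect without pairing was not computed, so no pairing is read from it. Against the 75th percentile the median of all transcripts shifted by 0.14 in the carbendazim mean and −0.28 in solvent control minus control. The methods' t-test, unadjusted, called between 2 and 3 transcripts at each carbendazim concentration and EAC00371 at dimethoate EC90, and 0 after Benjamini-Hochberg. The share of all transcripts that it called unadjusted is not given here, so nothing is read from these counts. Differences over several concentrations that are not named here kept their direction and side of the threshold in the settings run. Of 48 differences at single concentrations, 18 changed sign in 1 or more settings, 10 of them of EAC00999, and 0 passed in such a setting. With 3 arrays a group, the 95% interval of the carbendazim difference ran from 0.21 to 1.28 for EAC00181.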
